A study of Homo sapiens with 2 samples.

Results

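The enzymes described here detoxify aldehydes, quinones and peroxides, and they were examined on 1 array for each of 2 MKN1 lines. MKN1 is an established human gastric cancer cell line. The mutant line was transfected with a pBABE plasmid carrying RHOA with the Y42C substitution and the other with the same kind of plasmid carrying wild-type RHOA. Both lines were selected with puromycin and grown in RPMI medium with serum, so the vector and the drug are shared and the comparison holds no parental or empty-vector cells. The sources used here do not say whether each line was a pool or a single clone. RHOA is a small GTPase that controls the actin cytoskeleton, and Y42C is a substitution seen in gastric cancer. The question is how the RNA levels of these enzymes differ between the Y42C line and the wild-type line.

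Members were chosen by gene symbol alone: aldehyde dehydrogenases (ALDH), aldo-keto reductases (AKR), glutathione transferases (GST and MGST), glutathione peroxidases (GPX), peroxiredoxins (PRDX) and thioredoxin reductases (TXNRD). To these were added NQO1, NQO2, GCLC, GCLM, GSR, GSS, SRXN1, NFE2L2 and KEAP1. The rule gave 75 probe sets for 74 genes, of 17687 genes named on the array. AKR1A1, AKR1B1, GSTT1 and PRDX5 are not analysed here. With 1 array per line there is no replicate error, no test and no p-value, and every difference below compares these 2 arrays. Differences are Y42C minus wild-type in the deposited values, taken as log2 signal. In bulk RNA, fewer cells expressing a gene and less RNA per cell cannot be told apart.

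NRF2, the product of NFE2L2, is a transcription factor that KEAP1 holds in the cytoplasm and hands over for degradation. Oxidants and electrophiles modify KEAP1 and release NRF2, which pairs with small MAF proteins and binds antioxidant response elements near genes of this group. Glutathione, a cysteine-containing tripeptide, is made by glutamate-cysteine ligase and glutathione synthetase, is used by transferases and peroxidases, and is reduced again by glutathione reductase. Aldehyde dehydrogenases oxidise aldehydes to acids, and aldo-keto reductases reduce aldehydes and ketones to alcohols.

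The minimum for a detected signal was 5.14 on the Y42C array and 5.17 on the wild-type array, the 95th percentile of 349 olfactory receptor genes, and a gene had to reach it on either array. Of the 74 members, 57 were above it and 17 were below it on both arrays. Among the 57, 10 were at least 2-fold lower in the Y42C array and 0 were at least 2-fold higher. Of all 11802 genes above the minimum, 9.80% were at least 2-fold lower and 7.46% at least 2-fold higher, against 17.5% and 0% of the members. The 10 were GSTO1, GSTM3, NQO1, ALDH9A1, ALDH7A1, ALDH1A1, AKR7A2, ALDH3A2, GSTM2 and ALDH1A3. At a 4-fold threshold 2 members were lower, GSTO1 and GSTM3, where 0.585% of all genes were. Lower by any amount were 40 of the 57, or 70.2%, against 54.2% of all genes. After centring of the differences, which sets the median of all genes to 0, 36 of the 57 were lower. The 54.2% is not the reference for that count. These 57 include 8 members that reached the minimum on 1 array alone, which fixed their direction, and over the other 49 the median was -0.27 and 9 were at least 2-fold lower.

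The members' median difference was -0.28, with quartiles at -0.81 and 0.10. The median of all genes was -0.07, and it was also -0.07 for the 11745 genes above the minimum that are no member. The 10 lower members ran from -2.48 to -1.02. Nearest to the 2-fold line inside it were ALDH1A3 (-1.02), ALDH3A2 and GSTM2 (-1.05 each), and nearest outside it were GPX8 (-0.95) and NQO2 (-0.93). On the other side AKR1C2 stood closest to the line at 0.96. With differences centred on the median of all genes, ALDH1A3, ALDH3A2 and GSTM2 left the count and AKR1C2 passed 2-fold. That made 7 of 57 lower and 1 higher. Under the same centring 8.55% of all genes were at least 2-fold lower and 8.91% at least 2-fold higher.

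**Figure D1:**
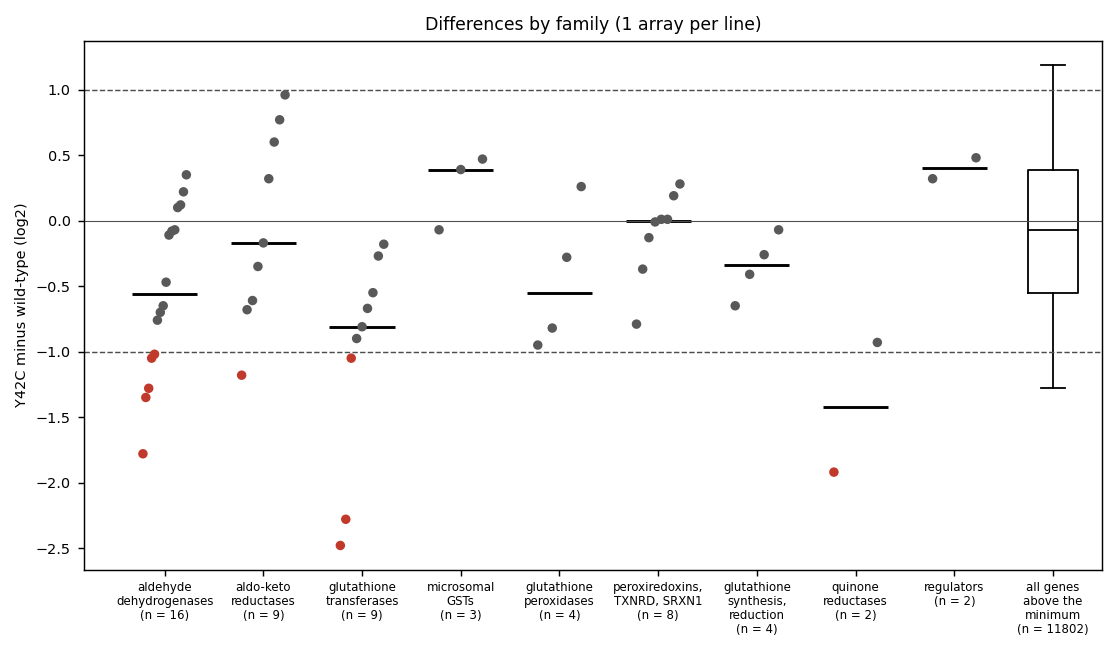
Difference between the arrays (Y42C minus wild-type, log2) for each member above the minimum, grouped by family, with the family median as a bar, and at the right a box of all 11802 genes (quartiles and median, whiskers at the 5th and 95th percentiles). Dashed lines mark 2-fold and red points are at least 2-fold lower. Red points lie in the aldehyde dehydrogenases, aldo-keto reductases, glutathione transferases and quinone reductases, and no family has a point at or above the upper line.

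Of the 16 glutathione transferases, 9 were above the minimum and had less signal in Y42C, also under the 3 other scalings tried. GSTA4 and GSTM1 reached the minimum on the wild-type array alone, which fixed their direction, and the other 7 reached it on both. Of the 9, 3 passed 2-fold, and the median was -0.81. Of all genes, 9.80% were at least 2-fold lower and 54.2% lower by any amount. GSTM2 left the count after centring, after removal of a trend on level, and when 16 was added to the linear values. Glutathione transferases couple glutathione to electrophiles. GSTO1, an omega-class enzyme that reduces rather than conjugates many substrates, read 8.28 in the Y42C array and 10.76 in the wild-type array. That is 5.58-fold lower in Y42C, and of all 11802 genes only 0.136% had a more negative difference. GSTM3, a mu-class transferase, read 9.54 in Y42C and 11.82 in wild-type, a 4.86-fold lower signal. Its difference lay 3.11 spreads below genes of like level, where the spread is the scaled median absolute deviation in 1 of 20 bins of signal. It was the 1 member beyond 3 such spreads, which 0.381% of all genes passed on the low side, and GSTO1 came next at -2.96.

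GSTM2 (5.75 in Y42C, 6.80 in wild-type) was 2.07-fold lower. The other mu-class genes above the minimum, GSTM4 and GSTM1, differed by -0.67 and -0.55. GSTM1 was measured above the minimum on the wild-type array alone (4.81 in Y42C, 5.36 in wild-type), so its fold is only bounded, at 1.17-fold or more. Mu-class genes lie next to each other on chromosome 1 and are close in sequence, so their probe sets may share signal. GSTP1, the pi-class enzyme that is abundant in many tumours, read 13.22 in Y42C and 14.03 in wild-type, 1.75-fold lower. GSTA4, which conjugates the lipid peroxidation product hydroxynonenal, was at least 1.51-fold lower (4.83 and 5.73), its Y42C value being below the minimum. GSTZ1, a zeta-class enzyme of tyrosine breakdown, and GSTK1, the mitochondrial and peroxisomal transferase, were nearly level at -0.27 and -0.18.

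The other 7 transferases were below the minimum on both arrays: GSTA1, GSTA2, GSTA3, GSTA5, GSTM5, GSTO2 and GSTT2. GSTO2 is the immediate neighbour of GSTO1 among the array's genes, and it read 4.26 in Y42C with a difference of 0.26. GSTT2 was the 1 member with several probe sets. They read 4.47 and 4.60 in Y42C and 4.47 and 4.86 in wild-type. With no minimum applied the median of all 16 transferases was -0.225, because 6 of those 7 dim genes had differences above 0.

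Microsomal transferases are membrane enzymes unrelated in sequence to the soluble ones. MGST1 read 11.08 in Y42C and 11.15 in wild-type, and its small difference of -0.07 turned above 0 once a trend on level was removed. MGST2, which can also make leukotriene C4, differed by 0.39 (9.07 in Y42C, 8.68 in wild-type). MGST3 differed by 0.47 (11.63 in Y42C, 11.16 in wild-type). Neither reached 2-fold, and the family's median was 0.39.

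**Figure D2:**
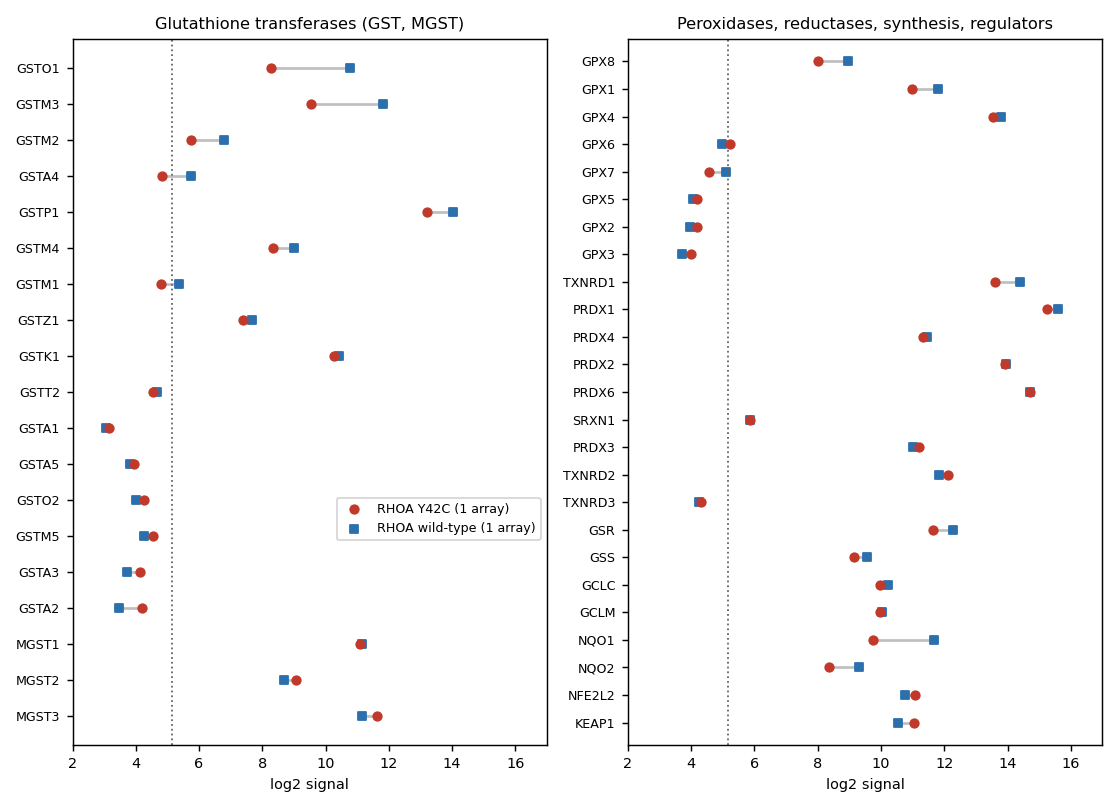
Log2 signal of each glutathione transferase (left) and of each peroxidase, peroxiredoxin, reductase, synthesis enzyme and regulator (right) on the Y42C array (red circle) and the wild-type array (blue square), 1 array each. Within a family, genes above the minimum come first, ordered by difference. The dotted line is the mean of the 2 arrays' minimums. The widest gaps are those of GSTO1 (8.28 in Y42C and 10.76 in wild-type), GSTM3 and NQO1. Signals of different genes come from different probes and are not compared.

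The quinone reductases were both lower. NQO1, which reduces quinones to hydroquinones and is a standard readout of NRF2 activity, read 9.75 in the Y42C array and 11.67 in the wild-type array. Its signal was 3.78-fold lower, and 0.72% of all genes had a more negative difference. NQO2, a relative that uses dihydronicotinamide riboside in place of NADH or NADPH, read 8.36 in Y42C and 9.29 in wild-type, 1.91-fold lower.

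The regulators stood on the other side of 0. NFE2L2 read 11.08 in Y42C and 10.76 in wild-type (0.32), and KEAP1 read 11.03 in Y42C and 10.55 in wild-type (0.48). Both differences are under 2-fold, and 71.5% and 78.3% of all genes had a lower difference than NFE2L2 and KEAP1. NRF2 is controlled mainly through the stability of its protein, which an RNA array does not measure.

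The promoters of 3 lower members and 3 other enzymes of the group, picked by hand, are shown, to set the searched response element beside the measured differences. Each is the 250 bases before a RefSeq gene start, 5′ to 3′ on the gene's strand, in build GRCh38.p14. Capitals mark matches to TGACNNNGC, the core of the antioxidant response element, searched on both strands. The windows lie at chr10:104254642-104254891 (plus strand) for GSTO1, chr1:109741039-109741288 (minus) for GSTM3 and chr16:69726561-69726810 (minus) for NQO1. Those of the others lie at chr1:93909431-93909680 (minus) for GCLM, chr11:67583562-67583811 (plus) for GSTP1 and chr12:104286782-104287031 (plus) for TXNRD1.
GSTO1: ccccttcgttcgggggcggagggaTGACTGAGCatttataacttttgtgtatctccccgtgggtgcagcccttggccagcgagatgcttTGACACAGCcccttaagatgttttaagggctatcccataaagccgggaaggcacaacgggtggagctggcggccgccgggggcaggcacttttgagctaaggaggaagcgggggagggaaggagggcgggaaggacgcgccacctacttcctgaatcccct
GSTM3: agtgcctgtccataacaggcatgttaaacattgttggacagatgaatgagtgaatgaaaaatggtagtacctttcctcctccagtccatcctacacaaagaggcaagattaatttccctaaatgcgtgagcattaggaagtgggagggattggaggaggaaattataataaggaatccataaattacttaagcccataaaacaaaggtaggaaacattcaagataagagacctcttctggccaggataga
NQO1: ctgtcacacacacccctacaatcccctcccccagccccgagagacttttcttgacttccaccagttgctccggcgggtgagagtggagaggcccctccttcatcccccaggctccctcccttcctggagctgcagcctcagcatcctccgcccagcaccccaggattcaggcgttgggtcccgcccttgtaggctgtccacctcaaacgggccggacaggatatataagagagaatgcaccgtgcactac
GCLM: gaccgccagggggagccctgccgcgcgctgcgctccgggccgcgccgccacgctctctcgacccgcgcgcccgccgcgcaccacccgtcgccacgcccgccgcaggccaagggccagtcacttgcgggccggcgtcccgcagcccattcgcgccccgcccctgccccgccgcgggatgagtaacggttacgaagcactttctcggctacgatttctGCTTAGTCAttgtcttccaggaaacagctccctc
GSTP1: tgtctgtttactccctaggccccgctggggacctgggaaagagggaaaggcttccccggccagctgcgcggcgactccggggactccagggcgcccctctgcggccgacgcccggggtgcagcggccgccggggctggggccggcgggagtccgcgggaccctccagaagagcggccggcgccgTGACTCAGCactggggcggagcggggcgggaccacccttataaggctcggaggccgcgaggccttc
TXNRD1: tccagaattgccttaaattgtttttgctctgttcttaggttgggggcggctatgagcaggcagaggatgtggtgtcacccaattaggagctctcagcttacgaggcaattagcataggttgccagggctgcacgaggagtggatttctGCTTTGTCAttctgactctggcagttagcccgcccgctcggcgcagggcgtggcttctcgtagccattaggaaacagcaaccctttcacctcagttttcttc

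GSTO1, with the most negative difference, had 2 matches, TGACTGAGC and TGACACAGC, whose first bases lie 226 and 161 bases before the start. GSTM3 and NQO1 had 0 in these windows, which says only that these letters are not in these 250 bases. GCLM, whose 2 values were close, had 1 match on the opposite strand 34 bases before the start. In GSTP1 the match TGACTCAGC also spells TGACTCA, the motif of AP-1 factors, so the searches for both overlap there. TXNRD1 had 2 listed starts, each with 1 match. Windows were found for 61 of the 74 members, and 10 of them (16.4%) held a match, against 13.2% of the 27305 genes with a window. Among genes above the minimum, 1548 of 9703 held one. All 10 lower members had a window and 2 of these held a match, GSTO1 and AKR7A2. The members' share was close to that of genes in general, and a match is a description of letters, not a bound site.

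Aldehyde dehydrogenases, the largest family, held the largest number of the lower members. Their share past 2-fold, 31.2%, was near the 33.3% of the glutathione transferases, where 9.80% of all genes were that low. Of 19 dehydrogenases measured, 16 were above the minimum, 12 of these were lower in the Y42C array, and 5 passed 2-fold. ALDH5A1 turned sign under quantile normalization and once a trend on level was removed, which left 11 lower. ALDH1L1 (-0.07) equalled the median of all genes, so centring also took it off the lower side. The family's median was -0.56, and -0.29 over the 14 genes above the minimum on both arrays, since ALDH1A1 and ALDH3A1 reached it in wild-type alone. After centring, or after removal of a trend on level, 3 of the 5 passed 2-fold, ALDH9A1, ALDH7A1 and ALDH1A1. Of all genes, 8.55% after centring and 8.16% after removal of the trend were at least 2-fold lower. ALDH9A1, which oxidises aminoaldehydes in the synthesis of carnitine and GABA, read 8.49 in Y42C and 10.27 in wild-type, 3.43-fold lower. Its immediate neighbour among the array's genes is MGST3, whose difference had the opposite sign. ALDH7A1, an enzyme of lysine breakdown, read 8.76 in Y42C and 10.11 in wild-type, 2.55-fold lower. ALDH3A2, the fatty aldehyde dehydrogenase, read 10.18 in Y42C and 11.23 in wild-type, 2.07-fold lower.

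The ALDH1A genes make retinoic acid from retinaldehyde, and ALDH1A1 activity is used as a marker of stem-like tumour cells. ALDH1A3 read 11.81 in Y42C and 12.83 in wild-type, 2.03-fold lower. ALDH1A1 read 5.08 in Y42C and 6.36 in wild-type. Its Y42C value was below the minimum, so it was at least 2.34-fold lower, and it passed out of the count when both arrays had to be above the minimum, when the minimum was the array median, or when 16 was added to the linear values. ALDH1A2 was close on both arrays (5.97 in Y42C, 6.08 in wild-type).

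ALDH2, the mitochondrial enzyme that clears acetaldehyde, was 1.62-fold lower (10.44 in Y42C, 11.14 in wild-type). ALDH3B1 and ALDH3A1 differed by -0.65 and -0.76, and ALDH6A1 by -0.47. ALDH3A1 lay around the minimum (4.92 in Y42C, 5.68 in wild-type). ALDH5A1, ALDH1L1, ALDH16A1 and ALDH1B1 lay between -0.08 and 0.12, and the sign of ALDH5A1 turned under quantile normalization and once a trend on level was removed. ALDH18A1, which makes proline and ornithine precursors, read 12.39 in Y42C and 12.17 in wild-type. ALDH4A1, which breaks proline down, had the most positive difference of the family, 0.35 (5.89 in Y42C, 5.54 in wild-type). ALDH8A1, ALDH3B2 and ALDH1L2 were below the minimum on both arrays.

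**Figure D3:**
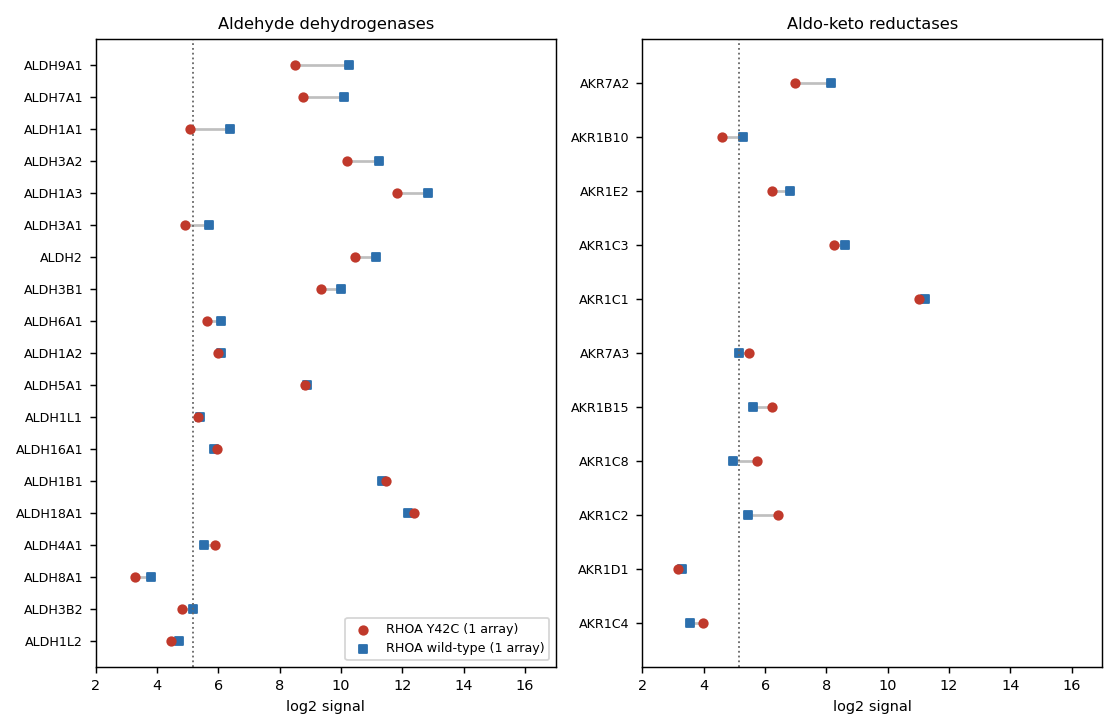
Log2 signal of each aldehyde dehydrogenase (left) and aldo-keto reductase (right) on the Y42C array (red circle) and the wild-type array (blue square), 1 array each. Genes above the minimum come first, ordered by difference, and the dotted line is the mean of the 2 arrays' minimums. Among the dehydrogenases 12 of 16 red circles lie left of their squares, and among the reductases 5 of 9 do.

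Aldo-keto reductases differed in both directions, with 5 of 9 lower, 4 higher and a median of -0.17. AKR7A3 and AKR1C8 reached the minimum on the Y42C array alone and AKR1B10 on the wild-type array alone, which fixed their direction. Over the 6 genes above it on both arrays the median was -0.26. AKR7A2, an aflatoxin aldehyde and succinic semialdehyde reductase, was the 1 member at least 2-fold lower. It read 6.97 in Y42C and 8.15 in wild-type, 2.27-fold lower. AKR7A3, its neighbour and relative, differed by 0.32 (5.46 in Y42C, 5.14 in wild-type), with the wild-type value below the minimum.

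The AKR1C enzymes reduce steroids and prostaglandins and are NRF2 targets in human cells. AKR1C1 read 11.03 in Y42C and 11.20 in wild-type, and AKR1C3 read 8.26 in Y42C and 8.61 in wild-type. Both lay slightly below 0. AKR1C2 read 6.41 in Y42C and 5.45 in wild-type, 1.95-fold higher, the most positive difference of all 57 members. AKR1C8 differed by 0.77 from values around the minimum (5.72 in Y42C, 4.95 in wild-type). These genes form 1 cluster on chromosome 10 and are close in sequence, so signal may be shared between their probe sets and the opposite signs are uncertain. In the AKR1B pair, also close relatives, AKR1B10 read 4.60 in Y42C and 5.28 in wild-type, at least 1.10-fold lower. AKR1B15 read 6.21 in Y42C and 5.61 in wild-type, 1.52-fold higher. AKR1E2 differed by -0.61, and AKR1D1 and AKR1C4, liver enzymes of bile acid synthesis, were below the minimum on both arrays.

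The 4 genes that make and recycle glutathione were slightly lower, 0 of them by 2-fold, with a median of -0.335, though the sign of GCLM turned under quantile normalization and once a trend on level was removed. GSR, glutathione reductase, read 11.64 in Y42C and 12.29 in wild-type, 1.57-fold lower. GSS, glutathione synthetase, read 9.15 in Y42C and 9.56 in wild-type. GCLC, the catalytic subunit of the rate-limiting ligase, read 9.96 in Y42C and 10.22 in wild-type, and GCLM, its modifier subunit, read 9.96 in Y42C and 10.03 in wild-type. For scale, the olfactory receptor genes, a set at background signal, had an SD of 0.44 in their differences. GSS, GCLC and GCLM lay inside it. These 4 genes are brighter, and the spread of genes of like level was 0.638 for GSR, 0.726 for GCLC and 0.801 for GSS and GCLM. On that scale GSR lay at -0.925 spreads.

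Of the glutathione peroxidases, 4 of 8 were above the minimum and 0 reached 2-fold. GPX8, a peroxidase of the endoplasmic reticulum, read 8.01 in Y42C and 8.96 in wild-type, 1.93-fold lower. GPX1, the main cytosolic enzyme, read 10.99 in Y42C and 11.81 in wild-type, 1.77-fold lower. GPX4, which reduces lipid peroxides in membranes and so limits ferroptosis, read 13.53 in Y42C and 13.81 in wild-type. GPX6 differed by 0.26 from values around the minimum, and GPX2, GPX3, GPX5 and GPX7 were below it. GPX2, a gastrointestinal peroxidase and NRF2 target, read 4.19 in Y42C and 3.96 in wild-type.

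Peroxiredoxins and their partners had 4 of 8 lower and a median of 0. The sign of PRDX2 turned under all 3 other scalings, and that of PRDX6 under quantile normalization. TXNRD1, the cytosolic thioredoxin reductase and an NRF2 target, was the exception at 13.59 in Y42C and 14.38 in wild-type, 1.73-fold lower. TXNRD2, the mitochondrial reductase, read 12.12 in Y42C and 11.84 in wild-type, and TXNRD3 was below the minimum. PRDX1 read 15.24 in Y42C and 15.61 in wild-type, a difference of -0.37. PRDX2, PRDX3, PRDX4 and PRDX6, which remove hydrogen peroxide in cytosol, mitochondria and endoplasmic reticulum, lay between -0.13 and 0.19. SRXN1, which repairs overoxidised peroxiredoxins and is also an NRF2 target, read 5.87 in Y42C and 5.86 in wild-type.

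Some NRF2 targets among the members had unequal differences on these arrays. They were -1.92 for NQO1, -0.79 for TXNRD1, -0.35 for AKR1C3 and -0.26 for GCLC. Further ones were -0.17 for AKR1C1, -0.07 for GCLM, 0.01 for SRXN1 and 0.96 for AKR1C2, whose sign is uncertain. This choice is not complete and gives no balance of directions. Members outside it include AKR1B10 (-0.68), GSR (-0.65) and PRDX1 (-0.37). AKR1C8, a further gene of the AKR1C cluster, differed by 0.77.

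**Figure D4:**
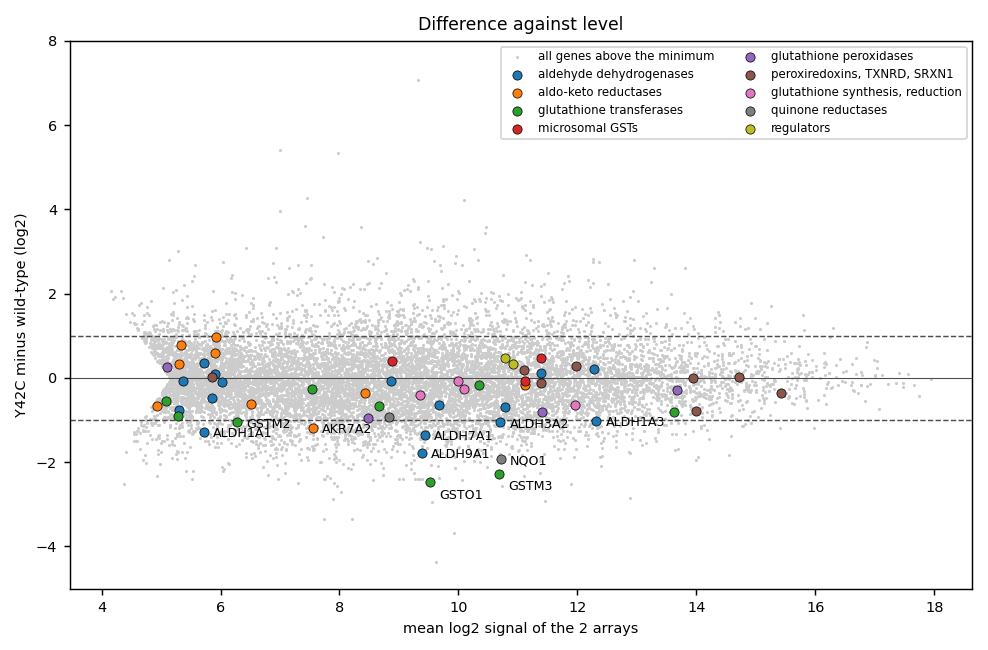
Difference between the arrays (Y42C minus wild-type, log2) against the mean log2 signal, for all 11802 genes above the minimum (grey) and for the 57 members among them (coloured by family). Dashed lines mark 2-fold, and the 10 members at least 2-fold lower are named. They lie at mean signals from that of ALDH1A1 to that of ALDH1A3, and the members at the right end of the plot stay within 1 log2 unit of 0.

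A list of NRF2 target genes outside these families was read beside them. Of 25 genes listed, 21 were measured and 19 were above the minimum. Of the 19, 11 were lower (57.9%) and 8 higher in Y42C, where 54.2% of all genes were lower. At 2-fold, 4 of the 19 passed on the low side and 0 on the high side, where 9.80% and 7.46% of all genes did. The median of the 19 was -0.31. UGDH, which makes UDP-glucuronate, read 10.92 in Y42C and 12.62 in wild-type, 3.25-fold lower. CBR1, a carbonyl reductase, read 10.41 in Y42C and 12.02 in wild-type, 3.05-fold lower. TRIM16 (8.57 in Y42C, 9.71 in wild-type) and the pentose phosphate enzyme PGD (10.04 in Y42C, 11.16 in wild-type) were 2.20-fold and 2.17-fold lower. At the upper end stood the exporter ABCC3 (0.81) and the cytochrome CYP4F11 (0.72). HMOX1, heme oxygenase, was below the minimum on both arrays (4.70 in Y42C, 4.64 in wild-type), and so was ABCC2. The 4 listed genes that were not measured are not analysed here. The list's median was -0.04 with no minimum applied.

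Partners and regulators of NRF2 had 0 of 11 genes at least 2-fold apart. Of the 11, 6 were higher and 5 lower, and their median was 0.47, or 0.10 over all 13 measured with no minimum. MAFF, a small MAF partner, read 7.66 in Y42C and 6.68 in wild-type, 1.97-fold higher, and it passed 2-fold under the 3 other scalings. BACH1, a repressor that competes for the same elements, read 10.48 in Y42C and 9.79 in wild-type, 1.61-fold higher. CUL3, the ubiquitin ligase scaffold that works with KEAP1, and GSK3B differed by 0.59 and 0.62. RBX1, the RING subunit of that ligase, differed by -0.90, and BTRC, part of another NRF2 ligase, by -0.54.

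Genes of glutathione breakdown, cysteine supply and the glyoxalase route gave 2 of 14 past 2-fold on the low side and 1 on the high side, and their median was -0.29. Under the 3 other scalings the counts were 1 lower and 2 higher, and with centring CHAC2 left the low side and CBS passed on the high side. HAGH, glyoxalase II, which releases glutathione from lactoylglutathione, read 7.58 in Y42C and 9.88 in wild-type, 4.92-fold lower. GLO1, the enzyme before it, read 12.51 in Y42C and 13.42 in wild-type. CHAC2, which cleaves glutathione, was 2.07-fold lower (8.01 in Y42C, 9.06 in wild-type). SLC3A2, the heavy chain of the cystine transporter and of other amino acid transporters, read 15.36 in Y42C and 14.12 in wild-type, 2.36-fold higher. SLC7A11, the cystine-specific light chain, differed by -0.69 (5.95 in Y42C, 6.64 in wild-type). CBS, the first enzyme of cysteine synthesis from homocysteine, differed by 0.96.

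Thioredoxin, glutaredoxin and sestrin genes had 1 of 12 at least 2-fold higher and 0 lower. The 1 was MSRA, which repairs oxidised methionine, at 10.26 in Y42C and 8.78 in wild-type, 2.79-fold higher. TXN2 and GLRX3 were at the lower end, at -0.64 each, and TXN, the cytosolic thioredoxin, differed by 0.32. Of the superoxide and catalase genes, 4 of 9 were above the minimum and all 4 were lower, led by the copper chaperone CCS (7.59 in Y42C, 8.59 in wild-type). CCS stood exactly at 2-fold and left the count under each of the 3 other scalings. CYBA, a subunit of NADPH oxidases, differed by -0.94, SOD1 by -0.34 and catalase, CAT, by -0.29. The shares of these lists past 2-fold are to be read against the same 9.80% lower and 7.46% higher of all genes.

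**Figure D5:**
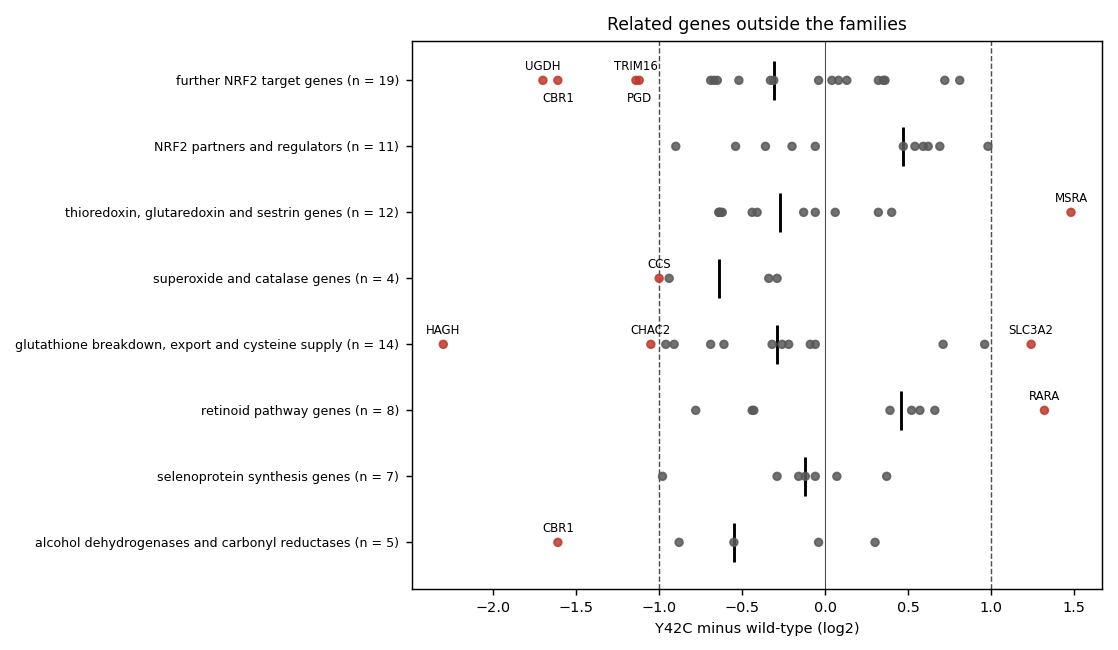
Difference between the arrays (Y42C minus wild-type, log2) for the genes above the minimum in 8 lists of related genes outside the families, with each list's median as a bar. Dashed lines mark 2-fold and red points, named, are at least 2-fold apart. UGDH, CBR1, TRIM16 and PGD lie left of the lower line in the NRF2 target list, and HAGH is the leftmost point at -2.30. CBR1 stands in 2 lists.

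The cells' labelled origin was checked on marker genes. Of 6 epithelial markers 5 were above the minimum, between 13.53 and 17.94 in Y42C and between 13.30 and 17.96 in wild-type, while CDH1 was below it (3.86 and 3.92). Of 7 gastric markers 1 was above it, CLDN18 (6.05 in Y42C, 5.48 in wild-type), so mucin and trefoil markers of differentiated stomach were not detected above background. Of the 3 measured squamous markers, KRT5 read 8.82 in Y42C and 9.48 in wild-type, KRT14 read 14.52 in Y42C and 14.32 in wild-type, and SPRR1A read 12.86 in Y42C and 5.78 in wild-type. Of 5 fibroblast markers 1 was above the minimum (COL1A1, 5.84 in Y42C and 6.05 in wild-type). The hepatocyte markers ALB, APOA1 and TTR, added because liver is rich in these enzymes, read between 5.27 and 5.78 in Y42C and between 4.85 and 5.75 in wild-type, close to the minimum. All 4 measured leukocyte markers were above the minimum on at least 1 array, between 5.39 and 10.15 in Y42C and between 4.61 and 10.66 in wild-type. Their differences were -1.78 for CD14, -0.51 for CD68, 0.78 for PTPRC and 0.97 for CD3E. PTPRC (5.39 in Y42C, 4.61 in wild-type) and CD3E (5.67 in Y42C, 4.70 in wild-type) passed on the Y42C array alone, close to the minimum. Their folds are only bounded, at 1.16 and 1.41 or more. The part of these markers in the enzymes' differences was not tested. RHOA itself read 16.30 in Y42C and 16.47 in wild-type, and its probe set was not assumed to separate the substituted from the normal RNA.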

How the data were processed

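Total RNA from each line was labelled as biotinylated cRNA and hybridised to 1 Affymetrix array, per the labels' protocols. The authors deposited 1 value per probe set and array, between 2.23 and 18.16, which were taken as log2 signal from their range. Per the submitters' processing notes, Affymetrix Expression Console was used; the sources used here state neither its version nor the background correction, summary method, normalization or log base. Column medians were 6.36 for Y42C and 6.42 for wild-type. Arrays give no read depth, and their number limits the precision.

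Of 21448 probe sets, 17709 had 1 gene symbol in the platform annotation, 0 had several and 3739 are unnamed here. Probe sets of 1 gene were averaged (20 of 17687 genes). All 74 members matched the gene table by Entrez identifier, and the table gave gene order only, since the files name no build. Where the dimmer array was below its minimum, the fold is the brighter value over that minimum. Counts past any fold threshold use the deposited values. The fold calls were tested on simulated data, with checks on planted effects well past 2-fold and on genes with none. Calls near 2-fold were not checked in that way. There is no test between the lines.

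Members and lists were chosen with earlier results of these data known. The text names every member at least 2-fold apart, NFE2L2, KEAP1, NQO1, GCLC, GCLM, GSR, TXNRD1 and SRXN1 wherever they lay, in each family the member with the highest signal and those with the highest and lowest difference, and of each further list the genes past 2-fold and up to 2 at each end; further members were added to the text with their values known. The alternatives tried were quantile normalization, centring, a lowess correction for level (span 0.3), the brightest probe set, a constant of 16 added, and other minimums and fold thresholds. Software was NumPy 2.4.6 and pandas 2.3.3 under Python 3.11.15, with matplotlib 3.10.9 and statsmodels 0.14.6. Promoter sequences are RefSeq's, in GRCh38.p14.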

Additional observations from a re-analysis of the deposited data

How the results depend on the processing

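The count of lower members, 10, ranged from 7 to 10 over the alternatives other than the fold threshold, and all of these had 7 or more of the same 10 genes. Over those alternatives the share of all genes at least 2-fold lower ranged from 6.76% to 10.7%. The count was 23 at a 1.5-fold and 2 at a 4-fold threshold, where 23.4% and 0.585% of all genes were lower. The count of higher members, 0, became 1 (AKR1C2) after centring and after removal of a trend on level. Of all genes, 8.91% and 8.96% were then at least 2-fold higher. At a 1.5-fold threshold 3 members were higher (AKR1C2, AKR1C8 and AKR1B15), and 17.8% of all genes were. The 1.5-fold counts use the deposited values, and AKR1C8 above and AKR1B10 and ALDH3A1 below have a bound under 1.5-fold. The median of -0.28 became -0.15 with no minimum, where 17 dim genes enter, the mean was -0.41, and otherwise it stayed between -0.36 and -0.21. For the 26 members varied one by one, 0 of 156 alternative values moved by more than 0.44, the SD of the olfactory receptor genes. A reversed call was possible only for the 10 lower members, and there were 0. The brightest probe set could not change a member with 1 probe set, so these zeros say little about stability. Among the other members varied, GCLM turned sign under quantile normalization, and GCLM and MGST1 once a trend on level was removed. Medians of families and further lists moved by over 0.1 in 33 of 187 cases. No paired analysis was possible because each line has 1 array. What limits these results is the lack of replicates and, for members near the minimum, signal over background.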

Other observations

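Enzymes next to these families were read too. Of the alcohol dehydrogenases and carbonyl reductases, 5 of 11 were above the minimum and 1 of the 5, CBR1, was at least 2-fold lower in the Y42C array. ADH5, the class III alcohol dehydrogenase that clears formaldehyde with glutathione, read 11.14 in Y42C and 12.02 in wild-type (-0.88). CBR4 differed by -0.55, CBR3 by -0.04 and DCXR by 0.30, and the sign of CBR3 turned after centring. The class I alcohol dehydrogenases ADH1A, ADH1B and ADH1C, and ADH4, ADH6 and ADH7, were below the minimum on both arrays.

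Among retinoid pathway genes, which supply the ALDH1A enzymes or act on retinoic acid, 8 of 13 were above the minimum, 1 was at least 2-fold higher and 0 lower. RARA, a retinoic acid receptor, read 10.48 in Y42C and 9.16 in wild-type, 2.50-fold higher. The retinol transporter STRA6 differed by 0.66, and RDH11 and the retinoic acid hydroxylase CYP26A1 by -0.78 and -0.44. Their median was 0.455, and 0.03 with no minimum. Genes that insert selenocysteine into peroxidases and thioredoxin reductases had 0 of 7 at least 2-fold apart, with TRNAU1AP at -0.98, SEPHS1 at -0.29, SECISBP2 at 0.37 and EEFSEC at 0.07.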
